A study of Homo sapiens with 6 samples.

Results

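The genes of the mTOR and S6 kinase axis were examined in A549 cells upon knock-down of KMT9α. The group holds 10 genes of the 23180 gene symbols with counts. They were picked by name for their place in the pathway, with earlier results of these data known. MTOR, RPTOR and RICTOR encode the kinase and the scaffolds of its complexes, TSC1, TSC2 and RHEB the switch above it, and RPS6KB1, RPS6KB2, EIF4EBP1 and EIF4EBP2 its best known targets in translation. All 10 passed the filter on low counts. A549 is an established lung adenocarcinoma line, labelled as wild-type and taken at passage 11. Both groups were transfected with siRNA at 65 nM and harvested on day 3. The control group received siControl (n = 3) and the other siKMT9α#1 against N6AMT1, the gene of the KMT9α subunit (n = 3). The labels name the 3 samples of a group biological replicates without saying whether they were separate cultures, so the p-values measure the spread between these samples. The comparison rests on 1 siRNA against KMT9α in 1 cell line.

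The kinase mTOR works in a pair of complexes. mTORC1, built on RPTOR (raptor), is activated at the lysosome by the small GTPase RHEB when amino acids and growth factors are present, and it drives translation by phosphorylating the S6 kinases and the 4E-BPs. Unphosphorylated 4E-BPs hold the cap-binding protein eIF4E, and phosphorylation releases it. mTORC2, built on RICTOR, phosphorylates AKT, SGK and PKC kinases. The TSC1-TSC2 complex switches RHEB off. In lung adenocarcinoma the pathway is studied as an output of RAS and of the loss of LKB1 (STK11), and A549 cells are known to carry both lesions. The pathway is run mainly by phosphorylation, which RNA-Seq does not measure.

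The samples held between 13740097 and 19832395.5 counts over 1 transcript per gene. N6AMT1 was at 10.2, 10.9 and 11.4 CPM (counts scaled to library size with edgeR's TMM factors) with siControl and at 2.87, 3.21 and 3.35 CPM with siKMT9α#1. The epithelial keratins KRT8 and KRT18 were abundant in every sample (at least 501.8 and 1176 CPM), while EPCAM was low (0.44 to 4.25 CPM). The leukocyte marker CD3E was at 0 in all 6 samples and PTPRC reached at most 0.10 CPM. Of 13877 genes tested, 75.6% had an adjusted p under 0.05 (quasi-likelihood test of edgeR, adjusted after Benjamini-Hochberg across them) and 24.2% also passed the study's threshold of an unadjusted P below 1e-08 with an absolute log2 fold change above 0.26. In 77% of the genes the groups did not overlap. In bulk RNA, fewer cells with a transcript and less of it per cell cannot be told apart.

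Upon knock-down, the S6 kinase gene RPS6KB1 and the mTORC2 scaffold gene RICTOR rose, by 78% and 66%, while the second S6 kinase gene, RPS6KB2, fell to 0.64 of its control level. Both 4E-BP genes fell. RPTOR rose by 15%, RHEB fell by 10%, and MTOR, TSC1 and TSC2 did not pass the test. In counts, 3 of the 10 genes were called higher, against 37.1% of all genes tested, and 4 were called lower, against 38.5%. The study's threshold was passed by 2 genes upwards, RPS6KB1 and RICTOR (13.5% of all genes tested), and by 0 downwards (10.7%). The study does not name its edgeR test, and with the likelihood-ratio test 2 genes passed it downwards. The median absolute log2 fold change was 0.26 over the 10 genes and 0.47 over all genes tested.

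**Figure D1:**
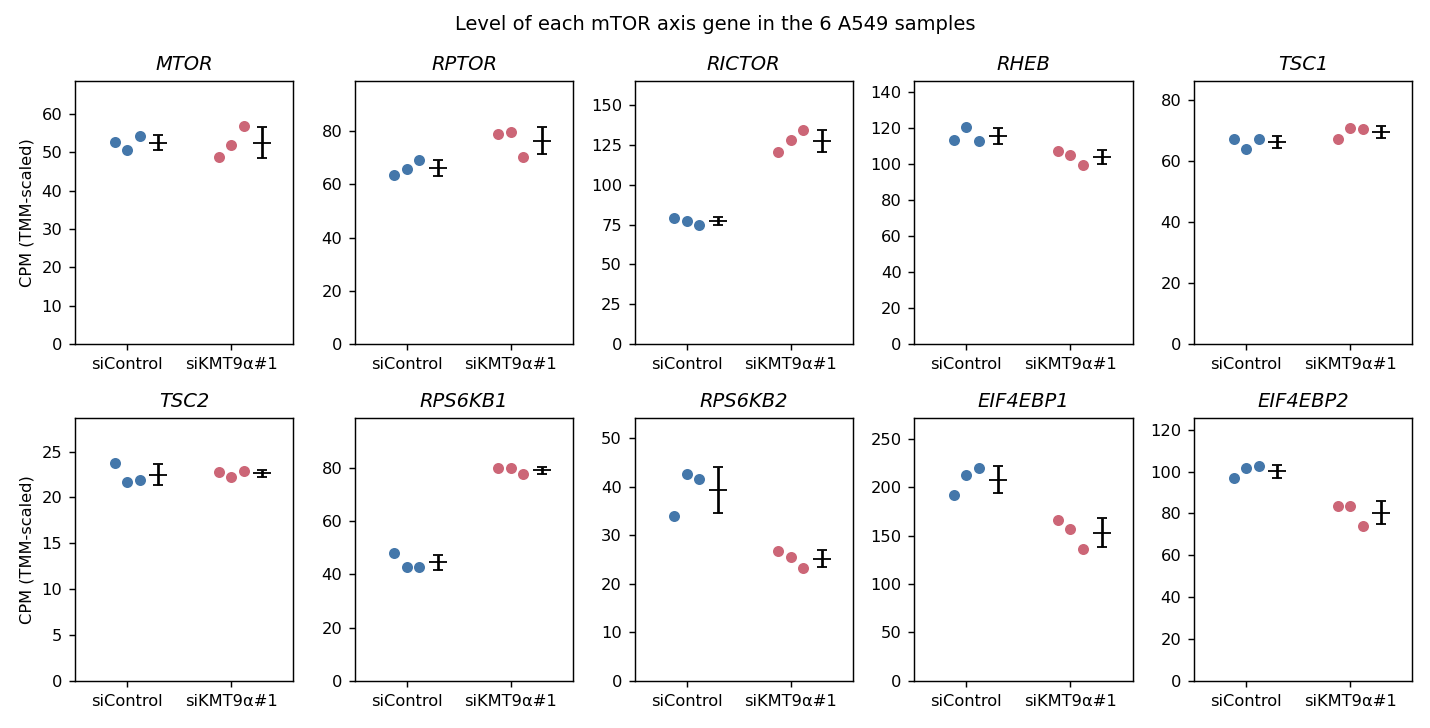
Level of each of the 10 genes in CPM (vertical axis, from 0) in every siControl (blue) and siKMT9α#1 (red) sample. Dots are samples, and the black bars are the group mean and SD (n = 3). RPS6KB1 and RICTOR lie higher in all siKMT9α#1 samples, and RPS6KB2, EIF4EBP1, EIF4EBP2 and RHEB lie lower. The groups overlap for MTOR, TSC1 and TSC2.

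RPS6KB1 encodes S6K1, the kinase that phosphorylates ribosomal protein S6 and several regulators of translation. Its transcript NM_003161 spans bases 57970443 to 58027786 of chromosome 17 (hg19, plus strand). It was at 47.8, 42.9 and 42.6 CPM with siControl and at 79.8, 79.7 and 77.5 CPM with siKMT9α#1. The lowest siKMT9α#1 sample was far above the highest siControl sample. RPS6KB1 had a log2 fold change of 0.83 (standard error 0.06, 95% interval 0.71 to 0.95, adjusted p = 9.73e-11 in edgeR). By size it stood at the 72.7th percentile of all genes tested, so larger changes were common in these cells.

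RPS6KB2 encodes S6K2, the closest relative of S6K1 and likewise a kinase of ribosomal protein S6. The counts are of NM_003952, which spans bases 67195935 to 67202879 of chromosome 11 (plus strand). The siControl samples had 33.9, 42.6 and 41.5 CPM and the siKMT9α#1 samples 26.8, 25.5 and 23.2 CPM. The first siControl sample was the lowest of its group and still above every siKMT9α#1 sample. For RPS6KB2 the log2 fold change was -0.65 (standard error 0.08, 95% interval -0.83 to -0.47, adjusted p = 9.25e-07 in edgeR).

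The S6 kinase genes thus moved in opposite directions within the same samples. Per kilobase of transcript, the ratio of RPS6KB1 to RPS6KB2 was 0.46, 0.33 and 0.34 with siControl and 0.98, 1.03 and 1.10 with siKMT9α#1. RPS6KB1 made up 27.3 ± 3.81% (SD, n = 3) of the S6 kinase transcripts in control cells and 50.9 ± 1.40% (SD, n = 3) upon knock-down. On the log2 scale the ratio was higher by 1.47 (standard error 0.16), a 2.78-fold difference. The groups did not overlap, and the two-sided exact permutation test gave p = 0.1, the smallest value that 3 samples against 3 allow (0.13 after Benjamini-Hochberg adjustment over the 4 ratios compared). The sum of both S6 kinases relative to MTOR, per kilobase, was 5.09 ± 0.45 with siControl and 4.86 ± 0.57 with siKMT9α#1 (SD, n = 3 each). Without offsets this difference was within the spread of the samples. The sum was not computed again with GC and length offsets, under which MTOR was at -0.33, RPS6KB1 at 0.74 and RPS6KB2 at -0.39.

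The promoters of these genes are shown because these genes moved in opposite directions. The sequences are RefSeq promoters of the GRCh38.p14 table, of which the 250 bases before RefSeq's start were searched and matched to GRCh37 without a mismatch. The last 39 bases of that window for RPS6KB1 and the last 30 for RPS6KB2 lie inside the counted transcript, so the sequences printed end where it starts. The printed part of RPS6KB1 lies at chr17:57970232-57970442 on the plus strand and that of RPS6KB2 at chr11:67195715-67195934 on the plus strand. Capitals mark GCGCATG or its reverse complement CATGCGC, part of the site known for the factor NRF1. The motif was chosen after the RPS6KB1 promoter had been read.
RPS6KB1: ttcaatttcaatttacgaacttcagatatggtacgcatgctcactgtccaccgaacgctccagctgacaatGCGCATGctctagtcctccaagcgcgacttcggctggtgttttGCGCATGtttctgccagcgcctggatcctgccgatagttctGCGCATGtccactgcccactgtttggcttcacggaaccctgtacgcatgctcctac
RPS6KB2: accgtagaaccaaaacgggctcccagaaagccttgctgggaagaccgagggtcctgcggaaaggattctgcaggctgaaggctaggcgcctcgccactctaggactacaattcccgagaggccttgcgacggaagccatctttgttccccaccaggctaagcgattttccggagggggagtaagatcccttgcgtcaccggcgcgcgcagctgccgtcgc

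RPS6KB1 holds 3 matches and RPS6KB2 holds 0. Of 35116 promoters of the same length in the table, 3.77% hold the 7 letters on either strand and 0.168% hold 3 or more matches. Because the motif was picked from the RPS6KB1 promoter, these shares do not measure how unusual its matches are. None of the other promoters looked at here (MTOR, RPTOR, RICTOR, EIF4EBP2, RHEB, TSC1 and TSC2) holds it. A match describes the letters and says nothing of a factor bound there.

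RICTOR encodes the scaffold of mTORC2. The counts are of NM_152756, which spans bases 38938022 to 39074501 of chromosome 5 (minus strand). The siControl samples had 79.3, 77.3 and 74.5 CPM and the siKMT9α#1 samples 120.4, 127.7 and 134.3 CPM. All samples upon knock-down were above all controls, with a gap larger than the range of either group. This was a log2 fold change of 0.73 (standard error 0.05, 95% interval 0.62 to 0.84, adjusted p = 2.06e-10 in edgeR).

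RPTOR encodes raptor, the scaffold that brings substrates to mTORC1. The counts are of NM_020761, which spans bases 78518625 to 78940173 of chromosome 17 (plus strand). It was at 63.5, 65.6 and 69.2 CPM with siControl and at 78.9, 79.5 and 70.4 CPM with siKMT9α#1. The groups did not overlap, but the third siKMT9α#1 sample was only just above the highest control. The log2 fold change was 0.20 (standard error 0.06, 95% interval 0.08 to 0.32, adjusted p = 0.0039 in edgeR). It was lost with the library size alone as the scaling (0.10, adjusted p = 0.136 in edgeR). The second listed RPTOR transcript, NM_001163034, gave 0.19 when every transcript was fitted.

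The scaffolds of the mTOR complexes therefore shifted relative to each other. Per kilobase, the ratio of RICTOR to RPTOR was 0.90, 0.85 and 0.77 with siControl and 1.10, 1.15 and 1.37 with siKMT9α#1. The controls had less RICTOR than RPTOR transcript in each sample, and the order was turned in each sample upon knock-down. On the log2 scale the ratio was higher by 0.52 (standard error 0.12), with p = 0.1 in the exact permutation test (0.13 adjusted over the 4 ratios).

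The promoters of the scaffold genes differ in base composition, with 76.0% G and C for RICTOR and 47.2% for RPTOR over the 250 bases searched. The printed parts lie at chr5:39074502-39074751 on the minus strand and at chr17:78518388-78518624 on the plus strand of GRCh37. They are given because RICTOR and RPTOR rose by different amounts. The last 13 bases of the RPTOR window lie inside its counted transcript and are left out. No capitals appear, since GCGCATG is in neither.
RICTOR: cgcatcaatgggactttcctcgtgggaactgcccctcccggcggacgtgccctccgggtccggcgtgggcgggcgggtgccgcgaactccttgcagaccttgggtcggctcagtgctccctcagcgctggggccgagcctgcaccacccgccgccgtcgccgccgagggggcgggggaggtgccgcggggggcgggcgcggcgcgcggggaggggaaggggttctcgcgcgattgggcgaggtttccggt
RPTOR: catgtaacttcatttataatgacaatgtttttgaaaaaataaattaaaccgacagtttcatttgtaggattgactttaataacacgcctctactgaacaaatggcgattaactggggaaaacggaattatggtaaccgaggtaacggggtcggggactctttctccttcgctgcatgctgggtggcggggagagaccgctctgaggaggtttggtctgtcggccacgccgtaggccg

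The GC box GGGCGG, read with its reverse complement CCGCCC, occurs 4 times before RICTOR and 0 times before RPTOR. RHEB, which fell, also holds 4, EIF4EBP2 and TSC1 hold 2 each, MTOR and TSC2 hold 1 each, and both S6 kinase genes hold 0. Of all promoters in the table, 42.6% hold at least 1 GC box and 13.9% hold 3 or more. The ETS core CCGGAAG, with CTTCCGG, is in neither of them. It occurs once each before TSC1 and TSC2 and in 8.52% of all promoters. TSC2 alone of the 9 promoters searched holds the E-box CACGTG, found in 6.34% of all promoters. The box CCAAT, with ATTGG, occurs 3 times before MTOR, 2 times before RHEB and once before RICTOR, and in 32% of all promoters.

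MTOR encodes the kinase itself. Its transcript NM_004958 spans bases 11166588 to 11322608 of chromosome 1 (minus strand), where it overlaps ANGPTL7. It was at 52.7, 50.5 and 54.3 CPM with siControl and at 48.7, 51.9 and 56.7 CPM with siKMT9α#1. The siKMT9α#1 samples reached from below to above the whole range of the controls. The log2 fold change was 0.0022 (95% interval -0.13 to 0.13, adjusted p = 0.975 in edgeR), so that a change of more than 10% in either direction lies outside the interval in this fit.

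RHEB, the GTPase that activates mTORC1, was counted as NM_005614, which spans bases 151163098 to 151217010 of chromosome 7 (minus strand). It was at 113.3, 120.8 and 112.8 CPM with siControl and at 107.3, 105.4 and 99.7 CPM with siKMT9α#1. The groups did not overlap, yet they were separated by less than the range of either. RHEB had a log2 fold change of -0.15 (standard error 0.05, 95% interval -0.26 to -0.05, adjusted p = 0.0103 in edgeR). Without siControl replicate 2 it was -0.11 and not called (adjusted p = 0.09 in edgeR).

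TSC1 and TSC2 encode the complex that holds RHEB inactive. TSC1, counted as NM_001162426 (chromosome 9, bases 135766735 to 135820020, minus strand), was at 67.2, 63.7 and 67.3 CPM with siControl and at 67.1, 70.7 and 70.3 CPM with siKMT9α#1. TSC2, counted as NM_001114382 (chromosome 16, bases 2097990 to 2138713, plus strand), was at 23.8, 21.7 and 21.9 CPM with siControl and at 22.8, 22.2 and 22.9 CPM with siKMT9α#1. The samples of the groups overlapped for both genes. On the log2 scale the change was 0.07 for TSC1 (95% interval -0.04 to 0.18, adjusted p = 0.218) and 0.01 for TSC2 (95% interval -0.14 to 0.16, adjusted p = 0.903 in edgeR), and the sign of both, as that of MTOR, turned with the library size alone. Each gene has 3 listed transcripts, and none of them was called when fitted one by one. The span of TSC2 overlaps PKD1, so some reads could belong to either gene. The ratio of TSC1 to TSC2, per kilobase, was 1.88 ± 0.08 with siControl and 1.96 ± 0.08 with siKMT9α#1 (SD, n = 3 each, exact permutation p = 0.3).

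EIF4EBP1 encodes 4E-BP1, the main repressor of eIF4E in many cells. The counts are of NM_004095, which spans bases 37888020 to 37917883 of chromosome 8 (plus strand). It was at 191.8, 212.2 and 219.3 CPM with siControl and at 165.8, 157.1 and 136.1 CPM with siKMT9α#1. All samples upon knock-down were below all controls. The log2 fold change was -0.44 (standard error 0.07, 95% interval -0.58 to -0.31, adjusted p = 4.73e-06 in edgeR).

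EIF4EBP2 encodes 4E-BP2, which binds eIF4E in the same way. The counts are of NM_004096, which spans bases 72163861 to 72188374 of chromosome 10 (plus strand). It was at 96.8, 101.5 and 102.5 CPM with siControl and at 83.7, 83.6 and 74.0 CPM with siKMT9α#1. The log2 fold change was -0.32 (standard error 0.06, 95% interval -0.44 to -0.21, adjusted p = 3.18e-05 in edgeR). As for EIF4EBP1, the groups did not overlap.

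Their partner EIF4E, the cap-binding protein, was at 41.9 ± 2.84 CPM with siControl and 45.9 ± 2.42 CPM with siKMT9α#1 (SD, n = 3 each) and did not pass the test (log2 fold change 0.13, adjusted p = 0.064 in edgeR). It was called higher under 5 of 18 alternatives, with adjusted p-values in edgeR of 0.0467 with RLE factors, 0.0447 without a filter, 0.00272 with GC offsets alone, 0.012 without siControl replicate 1 and 0.0276 without siKMT9α#1 replicate 1. Per kilobase, the summed 4E-BP transcripts were 25.8, 32.6 and 30.8 times those of EIF4E with siControl and 23.0, 19.8 and 17.4 times with siKMT9α#1, with no overlap between the groups. This ratio was looked at without a test. With GC and length offsets EIF4EBP1 fell less (-0.13, against -0.44 without them), EIF4EBP2 fell more (-0.66), and EIF4E was at 0.11. The ratio itself was not computed again with these offsets. EIF4EBP1 made up 94.8% of both 4E-BPs with siControl and 94.4% with siKMT9α#1. The ratio of EIF4EBP2 to EIF4EBP1 was higher upon knock-down by 0.12 on the log2 scale (standard error 0.05, exact permutation p = 0.1, 0.13 adjusted over the 4 ratios).

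**Figure D2:**
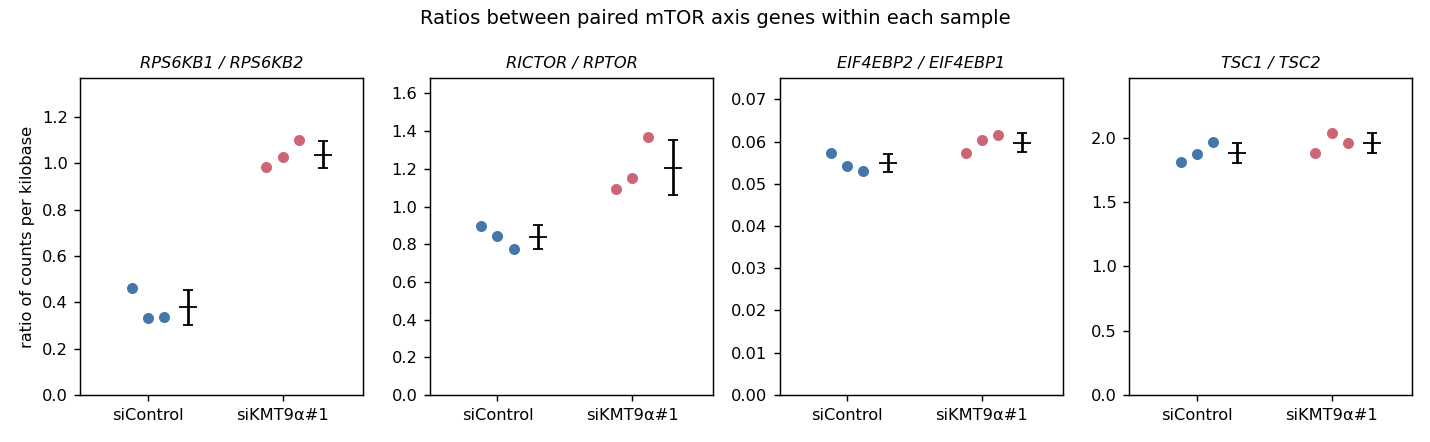
Ratio of counts per kilobase (vertical axis, from 0) between paired genes within each siControl (blue) and siKMT9α#1 (red) sample, with the group mean and SD in black (n = 3). The S6 kinase ratio moves from 0.38 to 1.04 on average and the RICTOR to RPTOR ratio from 0.84 to 1.21, while the 4E-BP and TSC ratios move by less than 10%.

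Compared per kilobase of the listed transcript, the levels covered a wide range. In control cells the order was EIF4EBP1 (243.3 CPM per kilobase), RHEB (56.1), RPS6KB2 (22.6), EIF4EBP2 (13.3), RPTOR (9.74), RPS6KB1 (8.40), RICTOR (8.14), TSC1 (7.71), MTOR (6.10) and TSC2 (4.10). Among neighbours in this order, the samples of RPS6KB1 and RICTOR overlapped and all other neighbours were apart in their 3 samples. With siKMT9α#1 the order from the third place on was RPS6KB1 (14.9), RPS6KB2 (14.5), RICTOR (13.5), RPTOR (11.2), EIF4EBP2 (10.7), TSC1 (8.10), MTOR (6.09) and TSC2 (4.13). RPS6KB1 thus moved from the sixth place to the third. Its samples overlapped with those of RPS6KB2, as did those of RPS6KB2 with RICTOR and those of RPTOR with EIF4EBP2. MTOR and TSC2 kept the lowest places in both groups.

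Transcript length moved with the fold change across all genes tested. For listed transcripts under 1 kb (929 genes) the median was -0.17 on the log2 scale, and for those over 8 kb (697 genes) it was 0.36. The members differ in length from 854 bases for EIF4EBP1 to 9458 for RICTOR, and in the GC content of an annotated transcript from 36.5% for RICTOR to 62.9% for EIF4EBP1. When each sample received offsets for GC content and length, RPS6KB1 kept a log2 fold change of 0.74 (adjusted p = 1.94e-14), RICTOR of 0.49 (adjusted p = 1.52e-11), RPS6KB2 of -0.39 (adjusted p = 3.40e-06), EIF4EBP2 of -0.66 (adjusted p = 1.59e-12) and EIF4EBP1 of -0.13 (adjusted p = 0.0147 in edgeR). RPTOR (0.03, adjusted p = 0.666) and RHEB (-0.09, adjusted p = 0.0926) were no longer called. MTOR (-0.33, adjusted p = 1.21e-06) and TSC1 (-0.31, adjusted p = 1.01e-06 in edgeR) were called lower. The offsets left TSC2 uncalled at -0.10. They turned the ratio of EIF4EBP2 to EIF4EBP1, which became lower by 0.53, and that of TSC1 to TSC2, lower by 0.21, while that of RPS6KB1 to RPS6KB2 stayed higher by 1.13 and that of RICTOR to RPTOR by 0.46.

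**Figure D3:**
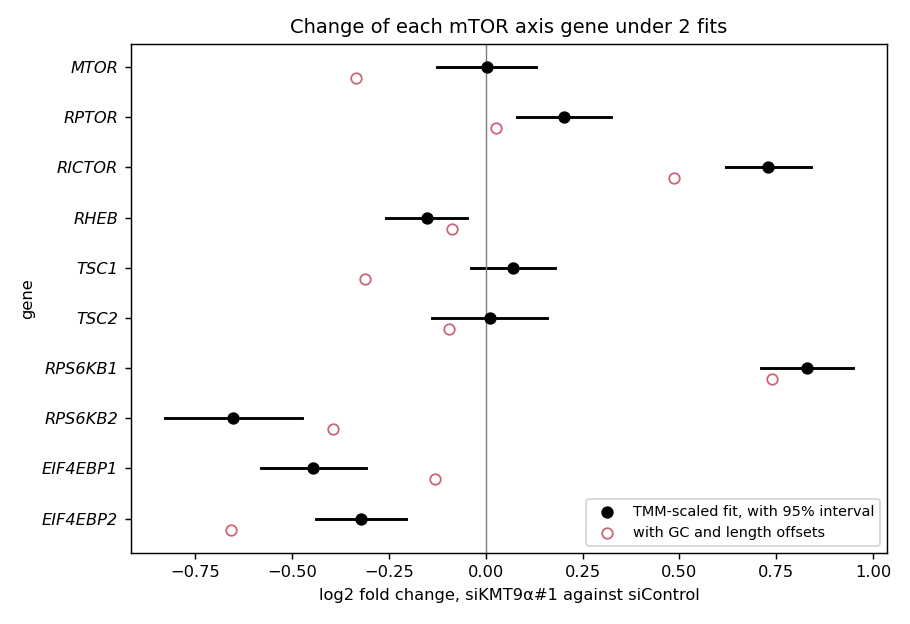
Log2 fold change of each gene between siKMT9α#1 and siControl (horizontal axis). Black dots and lines give the TMM-scaled fit with its 95% interval, and open red circles the fit with offsets for GC content and length. RPS6KB1, RICTOR, RPS6KB2, EIF4EBP1 and EIF4EBP2 keep their direction under both fits. MTOR and TSC1 lie near 0 in the first and at -0.33 and -0.31 in the second.

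The guide strand of siKMT9α#1 can also pair with other transcripts through its seed, bases 2 to 8, whose complement is ACATTCA. Among the annotated 3′ ends of the 10 genes, RICTOR alone holds these letters, once, against 13.0% of 19392 annotated 3′ UTRs. The match lies at base 1954 of the 3′ UTR, at bases 38940446 to 38940452 of chromosome 5 (GRCh37, minus strand). It is shown with its surroundings, the match in capitals.
RICTOR: acatattttagACATTCAttttaaacact

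RICTOR was higher upon knock-down, as given above, and the 4 members that were called lower hold 0 matches each. The part of the seed in any of these changes was not tested.

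The neighbours of these genes in the pathway were read from the same fit, in 9 lists of 96 genes ordered by role, of which 94 were tested. Of these, 40 were called higher and 37 lower, against 37.1% and 38.5% of all genes tested, and the median log2 fold change was 0.04, against -0.01 over all genes. With the library size alone as the scaling, 30 were called higher and 41 lower. GC and length offsets gave 38 higher and 38 lower. Single values below shifted with these offsets, some towards 0, as for LAMTOR1 (-0.43, against -0.67) and PRKCA (0.84, against 1.22). Others moved away from 0, as for RRAGD (-0.83, against -0.68). Among the 10 further subunits and partners of the mTOR and TSC complexes, 3 were called higher and 6 lower (median -0.27). TBC1D7, the third subunit of the TSC complex, fell by 1.07 on the log2 scale, with 153.6 ± 1.91 CPM in siControl and 73.5 ± 3.00 CPM in siKMT9α#1 samples (SD, n = 3 each, adjusted p = 2.63e-13 in edgeR). RHEBL1, a relative of RHEB, fell by 1.14 on the log2 scale. MLST8, a subunit of both mTOR complexes, fell from 38.0 ± 3.27 to 24.5 ± 2.24 CPM (log2 fold change -0.64, adjusted p = 4.92e-07 in edgeR). The TSC complex thus showed 1 called subunit out of 3 in the TMM-scaled fit.

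Of the 13 genes for the lysosomal platform (Rag GTPases, Ragulator and folliculin), 2 were called higher and 7 lower (median -0.17). The shares over all genes tested were 37.1% higher and 38.5% lower. The Ragulator genes LAMTOR1 and LAMTOR5 had log2 fold changes of -0.67 and -0.63, the Rag GTPase gene RRAGD of -0.68 and FNIP1, a partner of folliculin, of 0.53. Of the 16 GATOR, KICSTOR and sensor genes tested, 7 were called higher and 6 lower (median 0.04). The GATOR genes NPRL2 (-1.14), SEC13 (-0.68) and SEH1L (0.62) and the leucine sensor gene SESN2 (-0.56) passed the study's threshold. SEC13 and SEH1L also encode parts of the nuclear pore.

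Of the 21 genes for PI3K, AKT and AMPK inputs, 12 were called higher and 7 lower (median 0.17). Among all genes tested these shares were 37.1% and 38.5%. IRS1, the adaptor that links the insulin and IGF receptors to PI3K, rose by 1.57 on the log2 scale, with 56.7 ± 3.56 CPM in siControl and 168.0 ± 2.97 CPM in siKMT9α#1 samples (SD, n = 3 each, adjusted p = 2.97e-15 in edgeR). PRKAG2, a regulatory subunit of AMPK, rose by 1.05 on the log2 scale. The other AMPK subunits in the list were called in both directions or not called. AKT1, a kinase upstream of mTORC1 and a substrate of mTORC2, fell by 1.10 on the log2 scale, with 54.9 ± 0.48 CPM in siControl and 25.7 ± 0.60 CPM in siKMT9α#1 samples (SD, n = 3 each, adjusted p = 2.39e-12 in edgeR). DDIT4, whose product REDD1 restrains mTORC1, fell by 0.61 on the log2 scale. STK11 was called higher, at 0.31 (adjusted p = 0.0023 in edgeR).

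On the side of the targets, 4 of 6 S6 kinase substrates were called higher and 0 lower (median 0.32). For this and the lists that follow, the shares over all genes tested were 37.1% higher and 38.5% lower. RPS6, the substrate that gives S6 kinases their name, had a log2 fold change of 0.18 (adjusted p = 0.00508 in edgeR). This was lost with the library size alone (0.07, adjusted p = 0.23) and larger with GC and length offsets (0.39, adjusted p = 2.07e-09 in edgeR). Of 8 partners of the 4E-BPs in translation, 3 were called higher and 1 lower (median 0.06). Of 9 mTORC1 substrates in autophagy and growth, 6 were called higher and 2 lower (median 0.15). The log2 fold changes were 0.96 for GRB10, an adaptor that dampens insulin signalling, 0.87 for the autophagy kinase gene ULK1 and -0.82 for RB1CC1, a scaffold of the ULK1 complex. Of 4 mTORC2 substrates, 2 were called higher and 2 lower (median 0.31), with PRKCA at 1.22 and SGK1 at 0.84.

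The other ribosomal S6 kinases, mostly of the RSK and MSK families downstream of ERK and p38, had 1 gene called higher and 6 lower among the 7 tested (median -0.43). RPS6KC1 was at -0.82. RPS6KA2, named here after its value was seen, had the most negative value of all 9 lists (-1.91, standard error 0.21, adjusted p = 1.16e-07 in edgeR) at a low level of 3.59 ± 0.50 CPM with siControl and 0.97 ± 0.09 CPM with siKMT9α#1 (SD, n = 3 each). Over all genes tested, 37.1% were called higher and 38.5% lower. RPS6KB2 had the sign of the 6 lower kinases and RPS6KB1 that of the 1 higher. Whether these genes respond together was not tested.

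**Figure D4:**
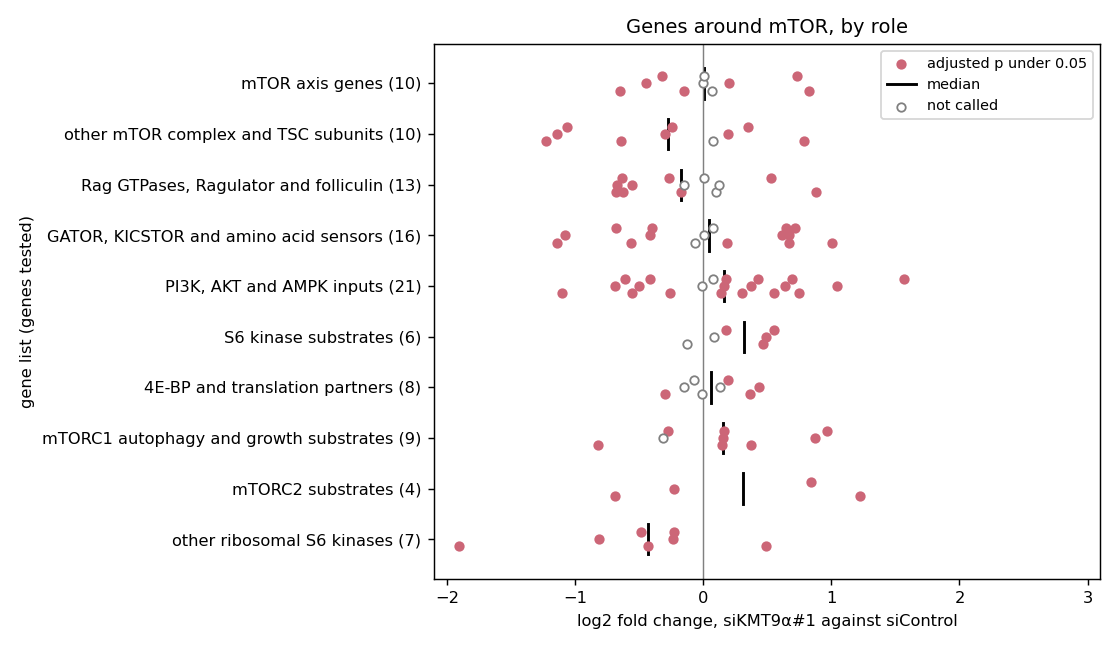
Log2 fold change between siKMT9α#1 and siControl (horizontal axis) of the 10 genes and of the genes tested in each list (rows, with their number). Filled dots are genes with an adjusted p under 0.05, open dots are genes not called, and black bars are medians. Genes called in both directions appear in every list except the S6 kinase substrates, where the 4 called genes are all higher.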

How the data were processed

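RNA-Seq was analysed for 6 samples of A549 cells, 3 per group, grouped by their titles. Per the study's methods and the labels, the authors aligned reads to hg19 with STAR and counted them per RefSeq transcript with HOMER. They deposited estimated counts in steps of 0.5 that are not normalized, and transcript lengths (a number with no other unit). They also deposited a fold change (a linear ratio), p-values, raw and adjusted, per transcript from their own edgeR comparison, which were not used. Counting options, strand use and library type are not given in the sources used here. GENCODE annotates processed pseudogenes of EIF4EBP1, EIF4EBP2 and RHEB and antisense genes at MTOR and RPS6KB2, whose reads the counting could mix with those of the members.

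The table has 38767 rows, of which 1182 without symbol and counts were left out. Each symbol was represented by its transcript with the highest total over the samples. Counts were rounded and fitted with edgeR 4.0.16 in R 4.3.3 (TMM factors 1.03 to 1.04 for siControl and 0.96 for siKMT9α#1, filterByExpr, group as the only term, two-sided quasi-likelihood F test, Benjamini-Hochberg over 13877 genes). Standard errors are the absolute log2 fold change divided by the root of F. The fit was tested on simulated data in which most genes were unchanged and no length trend was planted, unlike in these data. Ratios between genes were compared with scipy 1.17.1 by exact permutation. GC content came from GENCODE transcripts of GRCh37, the same assembly as hg19, for 97.9% of genes tested, and offsets were fitted per sample with natural splines of 5 degrees of freedom. Samples within a group differed beyond sampling noise (chi-square per gene 1.34 or more).

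The text names all members, N6AMT1, EIF4E, MLST8, STK11 and RPS6, and up to 3 rising and 3 falling genes per list past the study's threshold. Some genes that meet this rule or belong to the marker lists are not reported here. The members, the lists and the rule were chosen with earlier results of these data known. Alternatives were DESeq2 1.42.0, edgeR's likelihood-ratio test, other scalings and filters, every transcript, a replicate block, offsets, and leaving out each sample.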

Additional observations from a re-analysis of the deposited data

How the results depend on the processing

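RPS6KB1, RICTOR, RPS6KB2, EIF4EBP1 and EIF4EBP2 kept direction and call under all 18 alternatives, with log2 fold changes from 0.67 to 0.90, 0.40 to 0.78, -0.76 to -0.39, -0.55 to -0.13 and -0.66 to -0.26. Leaving out each sample in turn gave 0.17 to 0.26 for RPTOR, -0.17 to -0.11 for RHEB, -0.061 to 0.055 for MTOR, 0.05 to 0.10 for TSC1 and -0.0047 to 0.071 for TSC2. MTOR turned to -0.10 with the library size alone, -0.011 with at least 10 counts in every sample, -0.0026 with the replicate block, -0.33 with GC and length offsets and -0.34 with these and the block. TSC1 turned to -0.034 with the library size alone, -0.31 with the offsets and -0.31 with offsets and block, and TSC2 to -0.10, -0.10 and -0.092, and to -0.0033 with at least 10 counts in every sample. With the library size alone the median over all genes was -0.12, against -0.01. Offsets for length alone and for GC content alone were chosen after seeing the data. Those for length gave -0.31 for MTOR, -0.040 for RPTOR, -0.24 for TSC1 and -0.16 for TSC2, called lower for all of these but RPTOR (adjusted p = 0.0411 for TSC2 in edgeR). With them RHEB was at -0.0028 and not called (adjusted p = 0.961 in edgeR), and they left 1 member past the study's threshold upwards and 1 downwards. Those for GC content turned no member. Members past the study's threshold downwards numbered 2 with DESeq2, 2 with the likelihood-ratio test, 2 without a filter, 1 with GC and length offsets, 1 with these and the block, and 0 to 1 with a sample left out. Over all genes, 3357 passed that threshold, against 5962 with the likelihood-ratio test, 6070 without a filter, 6767 with every transcript and 5839 with offsets and block, and between 2326 and 4085 with a sample left out. At an adjusted p under 0.05, every transcript gave 18897 calls, since more features were tested. The differences of log2 ratios under GC and length offsets, also added later, were 1.13 for the S6 kinases, -0.53 for the 4E-BPs and -0.21 for the TSC genes. The cause of these shifts was not tested beyond the separate offsets. Same-numbered samples shared no deviation from their group means (correlations across genes of -0.08, 0.02 and -0.08), and the replicate block changed the call of no member. With 3 samples per group, differences of single ratios cannot reach an exact p below 0.1.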
